A study of Mus musculus with 2 samples.

Results

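The genes described here are the 4 subunits of the chromosomal passenger complex (Aurkb, Incenp, Birc5 and Cdca8) and 3 further kinases of mitosis (Aurka, Plk1 and Nek2). They were chosen by gene symbol and make up 7 of the 32285 genes counted. Their transcripts were followed through the cell classes of the mouse embryonic heart in a library labelled knockout and a library labelled wildtype. The knockout embryos were BubR1fl/fl; Nkx2.5-cre (het) and the wildtype embryos BubR1+/+; Nkx2.5-cre (het), all at E10.5, so the Cre allele is shared by both groups. For each group 4 hearts were pooled into 1 single-cell library, with no replicate library and no way to separate the hearts. Nkx2.5-cre acts in cardiac progenitors and their descendants, so cells of other origin in the same heart need not carry the deletion.

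The passenger complex assembles on the inner centromere and later on the central spindle. Its kinase Aurora B (Aurkb) is held and activated by the scaffold Incenp, while survivin (Birc5) and borealin (Cdca8) bring the complex to chromatin. There it releases wrongly attached kinetochores, the state that the spindle checkpoint protein BubR1 also senses. Aurora A (Aurka) and Polo-like kinase 1 (Plk1) drive centrosome maturation, spindle assembly and mitotic entry, and Nek2 separates the centrosomes. All these genes are transcribed mainly in G2 and M phase, so in a mixed tissue their level follows the share of dividing cells. In a sum over cells, fewer dividing cells and less transcript per dividing cell cannot be told apart.

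The files held 130039314 unique molecular identifiers (UMIs, counted transcript molecules) for the knockout library and 122834180 for the wildtype library. After cell filters, 5966 knockout cells with a median of 17042.5 UMIs and 7440 wildtype cells with a median of 9504.5 UMIs remained, and 8 cell barcodes occurred in both libraries. Cells were gated into classes by fixed markers, and the top 10 genes of each compared class held markers of that class and of no other. Bub1b, which encodes BubR1, had 29.6 CPM (counts per 1000000 UMIs of the class) in knockout cardiomyocytes and 55.7 CPM in wildtype cardiomyocytes, a log2 ratio of -0.91 with a 95% counting interval of -1.12 to -0.71. The sources used here do not give the deleted part of the gene, and 3' reads outside it would not test the deletion. In the other 4 classes compared, Bub1b was at a log2 ratio between 0.15 (mesenchymal) and 2.91 (erythroid). Other measures also separated the libraries in every class: Hmga2, a gene of early embryonic tissue, had 145 CPM in knockout and 26.6 CPM in wildtype cardiomyocytes, and hemoglobin took 45.3% of knockout and 83.6% of wildtype erythroid UMIs. The part of these differences in the results was not tested.

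On genome build GRCm38 (mm10), GENCODE vM21 places Aurkb at chr11:69045647-69051664 on the plus strand, Birc5 at chr11:117849251-117855743 on the plus strand, Incenp at chr19:9872296-9899551 on the minus strand and Cdca8 at chr4:124918465-124939311 on the minus strand. Aurka lies at chr2:172356190-172370535 on the minus strand, Plk1 at chr7:122159439-122169873 on the plus strand and Nek2 at chr1:191821444-191833050 on the plus strand. Incenp, Cdca8, Plk1 and Nek2 each overlap 1 other annotated gene, on the opposite strand for all but Incenp. The use of strand in counting is not stated, so reads of these pairs may have been shared.

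Promoters of 4 of the 7 genes (Aurka, Plk1, Nek2 and Birc5) were taken from the RefSeq promoter table for GRCm38.p6, which runs from 250 bases before to 50 bases after each gene start, and those of the other 3 are not used here. The gene starts of this table differ from those of GENCODE vM21 given above, and positions in the promoters are counted from the table's starts. They are shown because genes that are transcribed together in G2 and M phase are known to share a cell cycle homology region (CHR, TTTGAA or TTCGAA) and CCAAT boxes. Stretches of 30 bases around the TTTGAA matches, in capitals, read as follows.
Aurka chr2:172370521-172370550, minus strand: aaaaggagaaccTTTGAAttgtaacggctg
Plk1 chr7:122159453-122159482, plus strand: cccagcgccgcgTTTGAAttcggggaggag

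In both the element is followed by TT and lies past the table's gene start, at 32 bases in Aurka and 30 bases in Plk1. TTTGAA was held by 17.9% of the 32851 promoters of the table on either strand, and by 4.94% within their last 100 bases. TTCGAA was in none of the 4 promoters and in 1.56% of all. The 100 bases before the table's gene start follow, with CCAAT, which was searched on both strands, in capitals.
Aurka chr2:172370571-172370670, minus strand: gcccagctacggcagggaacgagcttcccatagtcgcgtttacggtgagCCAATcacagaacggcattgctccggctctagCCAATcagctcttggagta
Plk1 chr7:122159335-122159434, plus strand: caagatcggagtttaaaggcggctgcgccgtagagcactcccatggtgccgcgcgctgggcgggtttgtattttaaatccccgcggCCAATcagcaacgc
Nek2 chr1:191821373-191821472, plus strand: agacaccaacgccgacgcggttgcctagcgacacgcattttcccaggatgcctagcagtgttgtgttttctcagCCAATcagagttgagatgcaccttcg
Birc5 chr11:117849137-117849236, plus strand: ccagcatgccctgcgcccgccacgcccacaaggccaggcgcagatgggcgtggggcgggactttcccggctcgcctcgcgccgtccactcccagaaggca

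CCAAT stood in 3 of the 4 promoters, against 37.4% of all, with a further copy past the start in Nek2. Birc5 held none of these letters in its window. Nek2 held CCAAT and no TTTGAA. These matches describe the letters and do not show that a factor binds.

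Aurkb, the Aurora B kinase, had 21.8 CPM in knockout cardiomyocytes and 24.3 CPM in wildtype cardiomyocytes, and the interval of its log2 ratio of -0.16 held 0 (-0.43 to 0.11). It had 43.7 CPM in knockout against 29.8 CPM in wildtype endothelial/endocardial cells, and 46.6 CPM in knockout against 35.0 CPM in wildtype mesenchymal cells. It reached 52.6 CPM in knockout and 23.5 CPM in wildtype epicardial cells, and 30.7 CPM in knockout and 1.801 CPM in wildtype erythroid cells. Aurkb was thus higher in the knockout library in every compared class other than cardiomyocytes, where the intervals of the libraries overlapped.

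Incenp, the scaffold that binds the other 3 subunits, had 33.7 CPM in knockout and 41.9 CPM in wildtype cardiomyocytes, a log2 ratio of -0.31 (-0.52 to -0.11). Its level was 52.6 CPM in knockout and 42.2 CPM in wildtype endothelial/endocardial cells, and 74.5 CPM in knockout and 61.3 CPM in wildtype mesenchymal cells. In epicardial cells it was 78.5 CPM in the knockout library and 35.0 CPM in the wildtype library, and in erythroid cells 56.9 CPM against 6.58 CPM. Outside cardiomyocytes its mesenchymal log2 ratio of 0.28 (0.13 to 0.44) was its smallest.

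Birc5, survivin, had 180 CPM in knockout and 186 CPM in wildtype cardiomyocytes, the smallest difference of any member there, at a log2 ratio of -0.05 (-0.14 to 0.04). Endothelial/endocardial cells had 186 CPM in the knockout and 137 CPM in the wildtype library, and mesenchymal cells 242 CPM in the knockout and 162 CPM in the wildtype library. Epicardial cells had 230 CPM in the knockout and 124 CPM in the wildtype library, and erythroid cells 190 CPM in the knockout and 12.2 CPM in the wildtype library. The knockout level of Birc5 thus stayed between 180 and 242 CPM in all 5 classes, while the wildtype level ranged from 12.2 to 186 CPM.

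Cdca8, borealin, had 122 CPM in knockout and 138 CPM in wildtype cardiomyocytes, a log2 ratio of -0.17 (-0.29 to -0.06). It had 101 CPM in knockout and 77.6 CPM in wildtype endothelial/endocardial cells, and 147 CPM in knockout and 93.8 CPM in wildtype mesenchymal cells. Epicardial cells had 148 CPM in the knockout and 62.0 CPM in the wildtype library, and erythroid cells 120 CPM in the knockout and 7.54 CPM in the wildtype library. Its epicardial log2 ratio of 1.26 (1.13 to 1.38) was above that of Birc5, 0.89 (0.80 to 0.98), so the subunits of the complex differed by unequal amounts there.

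**Figure D1:**
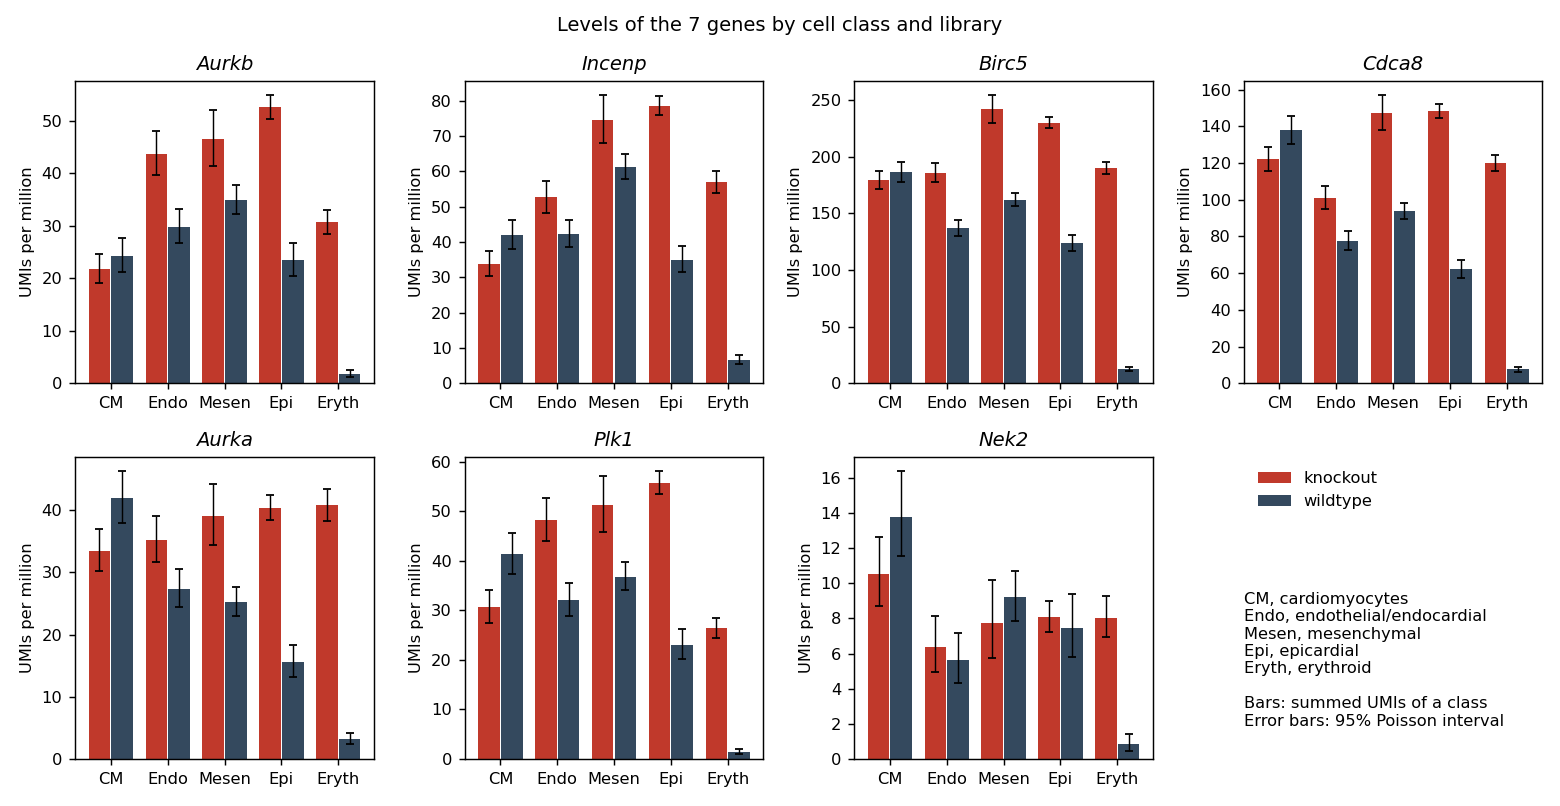
Level of each gene in CPM (vertical axes, each from 0 with its own scale) in 5 cell classes, with the knockout library left of the wildtype library. Bars are summed UMIs of a class and error bars 95% Poisson intervals; the knockout bar is the lower of the pair for all 7 genes in cardiomyocytes and the higher in the other classes, apart from Nek2 in mesenchymal cells.

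Aurka, the Aurora A kinase of the centrosome and spindle poles, had 33.5 CPM in knockout and 41.9 CPM in wildtype cardiomyocytes, a log2 ratio of -0.33 (-0.53 to -0.12). It had 35.3 CPM in knockout and 27.3 CPM in wildtype endothelial/endocardial cells, and 39.0 CPM in knockout and 25.2 CPM in wildtype mesenchymal cells. In epicardial cells it stood at 40.4 CPM in the knockout library and 15.6 CPM in the wildtype library, and in erythroid cells at 40.8 CPM in the knockout library and 3.21 CPM in the wildtype library. Its epicardial log2 ratio of 1.37 (1.13 to 1.62) was the highest of the 7 genes in that class.

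Plk1, which is needed for centrosome maturation and bipolar spindles, had the lowest cardiomyocyte ratio of the 7. It had 30.6 CPM in knockout and 41.4 CPM in wildtype cardiomyocytes, a log2 ratio of -0.44 (-0.65 to -0.22). Its level was 48.2 CPM in knockout and 32.1 CPM in wildtype endothelial/endocardial cells, where its log2 ratio of 0.58 was the highest of the 7 and lay just short of 1.5-fold. Mesenchymal cells had 51.2 CPM in the knockout and 36.8 CPM in the wildtype library. In epicardial cells Plk1 had 55.8 CPM in the knockout and 23.1 CPM in the wildtype library, and in erythroid cells 26.3 CPM in the knockout and 1.41 CPM in the wildtype library.

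Nek2, the kinase that loosens the linker between centrosomes, had the fewest UMIs of the set in every compared class, down to 15 in wildtype erythroid cells. It had 10.53 CPM in knockout and 13.8 CPM in wildtype cardiomyocytes, a log2 ratio of -0.39 (-0.76 to -0.02). In mesenchymal cells it had 7.71 CPM in the knockout and 9.20 CPM in the wildtype library, in epicardial cells 8.07 CPM in the knockout and 7.44 CPM in the wildtype library, and in endothelial/endocardial cells 6.39 CPM in the knockout and 5.61 CPM in the wildtype library. All 3 of these log2 ratios, -0.25, 0.12 and 0.19, had intervals that held 0. Only in erythroid cells were the CPM intervals of Nek2 apart, at 8.04 CPM in the knockout and 0.844 CPM in the wildtype library.

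With 1 library a group there is no test of the genotype, and the intervals cover counting error only. The 7 genes were therefore read against the genes that reached 20 UMIs in a class when the libraries were added, a minimum that all 7 passed in every class. In cardiomyocytes 0 of the 7 were past 1.5-fold in either direction, against a background of 11.6% of genes higher and 9.48% lower in the knockout library. All 7 ratios were below 0, with a median of -0.31 while the median of all genes was 0.07, and 5 of the 7 intervals lay below 0. In endothelial/endocardial cells again 0 of the 7 were past 1.5-fold, against 6.76% of genes higher and 16.4% lower. There all 7 ratios were above 0, with a median of 0.38 against -0.09 for all genes.

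In mesenchymal cells 2 of the 7 (Aurka and Cdca8) were past 1.5-fold higher, against 9.17% of genes higher and 20.8% lower. The median member was at 0.48 and the median gene at -0.04. In epicardial cells 6 of the 7 were past 1.5-fold higher, all but Nek2, against 13.9% of genes higher and 20.9% lower, with medians of 1.17 for the members and -0.03 for all genes. In erythroid cells 7 of 7 were past 1.5-fold higher, but so were 82.9% of genes, with 6.21% lower. The count is therefore near the background, while the median member was at 3.96 and the median gene at 2.23.

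**Figure D2:**
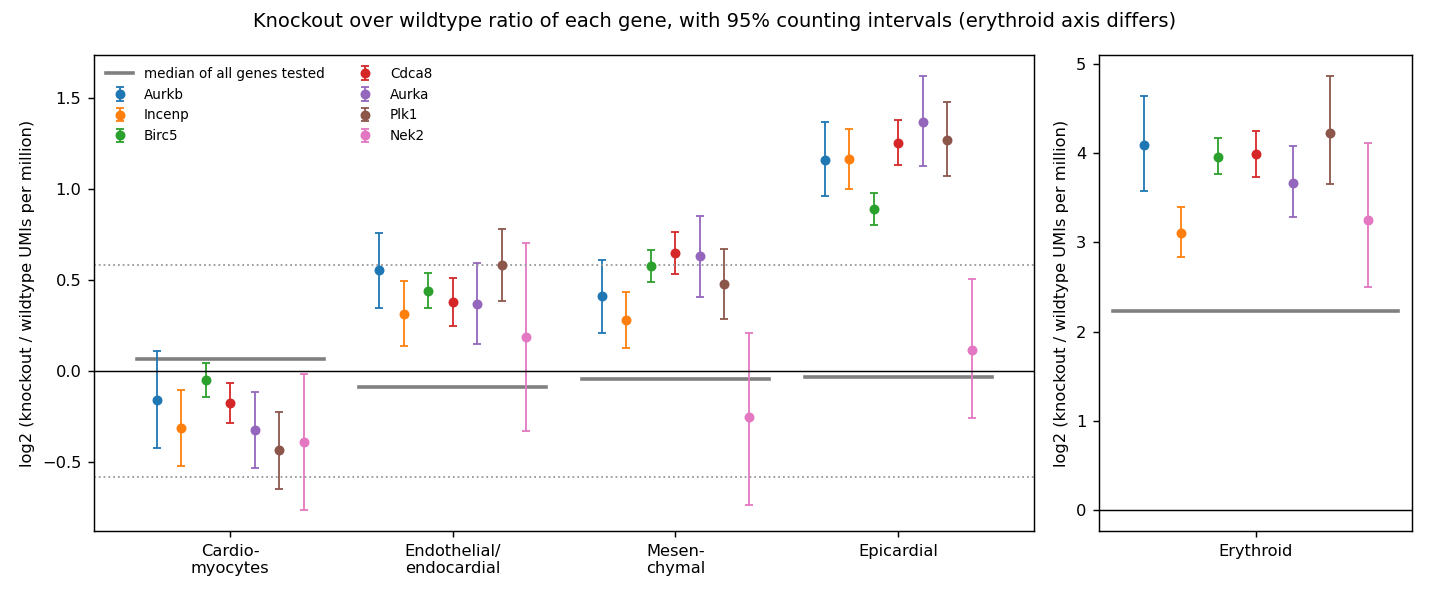
Log2 ratio of knockout to wildtype CPM for each gene (points, with 95% counting intervals) in 4 classes at left and in erythroid cells at right, on a different axis. Grey bars are the median of all genes tested and dotted lines mark 1.5-fold; all 7 points lie below 0 in cardiomyocytes, and Nek2 stands below the other 6 in mesenchymal and epicardial cells.

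Summed over the 7 genes, knockout cardiomyocytes had 432 CPM and wildtype cardiomyocytes 487 CPM, a log2 ratio of -0.17 (-0.23 to -0.12). Endothelial/endocardial cells had 473 CPM in the knockout and 352 CPM in the wildtype library (0.43, 0.37 to 0.49), and mesenchymal cells 608 CPM in the knockout and 423 CPM in the wildtype library (0.52, 0.47 to 0.58). Epicardial cells had 613 CPM in the knockout and 291 CPM in the wildtype library (1.08, 1.02 to 1.13), and erythroid cells 472 CPM in the knockout and 33.5 CPM in the wildtype library (3.82, 3.70 to 3.94). The mesenchymal class held 473 knockout and 1901 wildtype cells and led with partly different genes, Epha3, Twist1 and Postn first in the knockout and Pde1a, Sfrp2 and Pdgfra first in the wildtype library, so its values may set different mixtures of cells side by side. The epicardial class held 2133 knockout and 978 wildtype cells. Its mesenchymal markers summed to 1893 CPM in the knockout and 4896 CPM in the wildtype library, so the same limit holds for its values. The order of the classes differed between the libraries. In the knockout library it ran from epicardial over mesenchymal, endothelial/endocardial and erythroid cells to cardiomyocytes, the first pair and the next pair having overlapping intervals. In the wildtype library cardiomyocytes came first, followed by mesenchymal, endothelial/endocardial, epicardial and erythroid cells, with no overlap between neighbours.

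The size of the cardiomyocyte difference depended on which cells and genes were counted. Without hemoglobin and mitochondrial genes the log2 ratio was -0.25, relative to the median gene -0.24 and without Birc5 -0.26. Among the 363 knockout and 360 wildtype cardiomyocytes with at most 10% mitochondrial UMIs the log2 ratio was -0.07 with an interval that held 0 (-0.14 to 0.01). With every cell thinned to 3000 UMIs it was -0.13, also with 0 inside (-0.28 to 0.02). Thinned, at least 1 UMI of the 7 genes was seen in 47.5% of knockout and 47.5% of wildtype cardiomyocytes, against 73.0% of knockout and 71.9% of wildtype cells unthinned. The same thinned share was 59.2% of knockout and 25.8% of wildtype epicardial cells, and no class was at hand that could be taken to lack these genes. The lowest share was 8.11%, in wildtype erythroid cells, where hemoglobin took 83.6% of the UMIs. Free RNA could account for at most 132 of the 4802 knockout and 137 of the 4592 wildtype cardiomyocyte UMIs of the set.

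In erythroid cells the difference moved with hemoglobin. Red cells gain hemoglobin transcripts as they mature, and the maturation of the cells in these libraries was not tested. When only erythroid cells with at most 60% hemoglobin UMIs were kept, 1123 knockout and 42 wildtype cells, the summed log2 ratio was -0.26 (-0.46 to -0.05), against 3.82 in all erythroid cells. Taken without hemoglobin and mitochondrial genes it was 2.06. The erythroid values thus describe libraries that hold different shares of hemoglobin-rich cells.

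The next comparison set the 7 genes beside 32 other genes of G2 and M phase, among them Top2a, Mki67, Cdk1 and Ccnb1. The summed list was at a log2 ratio of -0.25 in cardiomyocytes, 0.50 in endothelial/endocardial cells, 0.32 in mesenchymal cells, 0.99 in epicardial cells and 3.61 in erythroid cells, in the same direction as the 7 genes in each class. In mesenchymal cells the interval of the list (0.29 to 0.34) lay apart from that of the 7 genes (0.47 to 0.58). Per UMI of the list, the 7 genes differed between the libraries by 0.08 (0.02 to 0.14) in cardiomyocytes, -0.07 (-0.13 to -0.01) in endothelial/endocardial cells and 0.08 (0.03 to 0.14) in epicardial cells. The ratios were larger in mesenchymal cells, 0.21 (0.15 to 0.26), and in erythroid cells, 0.20 (0.08 to 0.32). In endothelial/endocardial and epicardial cells these ratios were small beside those of the levels themselves.

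The same comparison was made in single cells. Cells were thinned to 3000 UMIs each and binned by their UMIs of the 32 other genes. In cardiomyocytes with none of these UMIs, the 7 genes had 0.105 UMIs per cell in the knockout and 0.0902 in the wildtype library, and with 10 to 14 they had 2.01 in the knockout and 2.14 in the wildtype library. At 25 or more they had 4.24 in the knockout and 4.43 in the wildtype library, so in cardiomyocytes the intervals of the libraries overlapped in these bins. In epicardial cells the lowest bin had 0.236 in the knockout and 0.0835 in the wildtype library, and the highest bin 4.51 in the knockout and 4.72 in the wildtype library. The lowest bin was also higher in the knockout library in the other classes, at 0.144 in knockout and 0.0552 in wildtype endothelial/endocardial cells, 0.192 in knockout and 0.0764 in wildtype mesenchymal cells, and 0.304 in knockout and 0.0428 in wildtype erythroid cells. Outside cardiomyocytes, thinned cells without a UMI of the list thus had more UMIs of the 7 genes in the knockout library. The intervals were separate in each of the 4 classes. Such cells may hold list UMIs unthinned, so the lowest bin need not be free of dividing cells. For erythroid cells this bin held 23 knockout cells, with 7 UMIs of the set, and 1098 wildtype cells. Their 3000 UMIs include hemoglobin, which took 45.3% of knockout and 83.6% of wildtype erythroid UMIs, so fewer UMIs of other genes were left in wildtype cells.

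**Figure D3:**
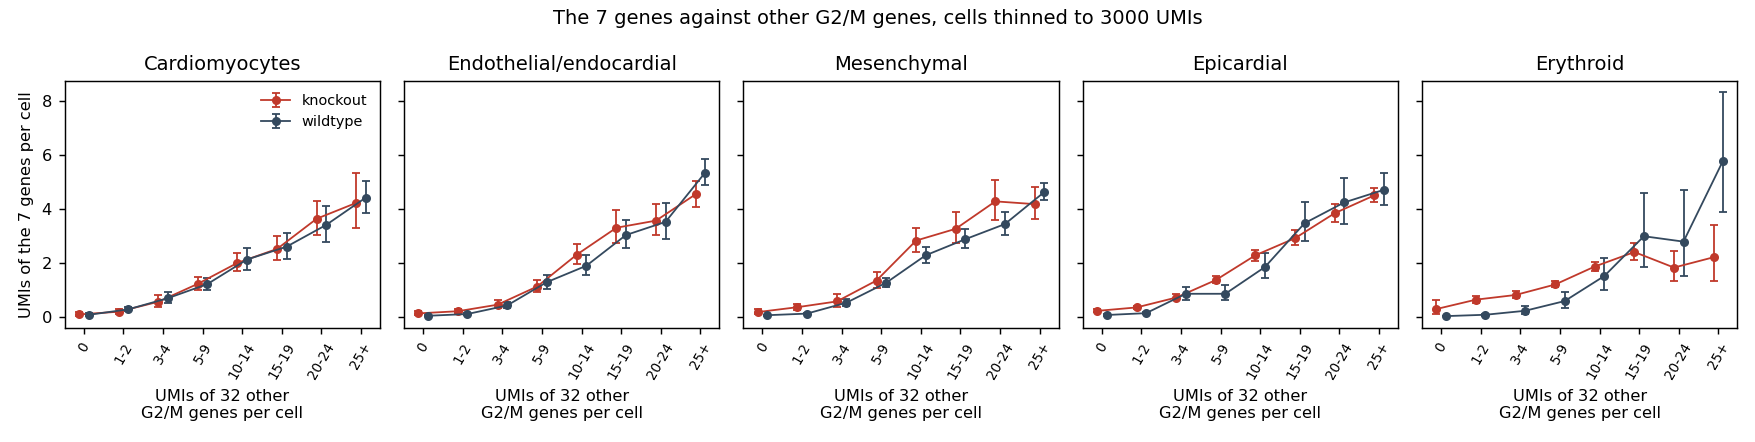
Mean UMIs of the 7 genes per cell (vertical axis) in bins of UMIs of 32 other G2/M genes (horizontal axis), for 5 cell classes with cells thinned to 3000 UMIs; error bars are 95% Poisson intervals. In cardiomyocytes the knockout and wildtype lines run together up to 4.24 UMIs per cell in the knockout and 4.43 in the wildtype library, and in erythroid cells the upper wildtype bins hold few cells.

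Members were also seen in the same cells. In cardiomyocytes with a Birc5 UMI, Cdca8 was found in 39.7% of 194 knockout cells and 43.6% of 202 wildtype cells. Without a Birc5 UMI it was found in 12.5% of 376 knockout cells and 13.9% of 411 wildtype cells. Plk1 was found in 16.5% of knockout and 14.9% of wildtype cells with Birc5, and in 3.72% of knockout and 4.38% of wildtype cells without it. Nek2 was found in 2.58% of knockout and 5.94% of wildtype cells with Birc5, and Incenp in 2.93% of knockout and 6.57% of wildtype cells without it. In thinned cardiomyocytes of both libraries each of the other 6 members was found in a larger share of the cells with a Birc5 UMI. Nek2 went the other way in knockout erythroid cells, at 1.95% with and 2.20% without Birc5.

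Cells with at least 10 of the 3000 UMIs from the 32 other genes were taken as G2/M-gated, a minimum set after the data had been seen. They made up 30.5% (26.8 to 34.5) of knockout and 28.9% (25.3 to 32.6) of wildtype cardiomyocytes. The shares were 29.8% of knockout and 16.6% of wildtype endothelial/endocardial cells, 37.0% of knockout and 23.0% of wildtype mesenchymal cells, and 35.7% of knockout and 14.3% of wildtype epicardial cells. Erythroid cells had 32.2% in the knockout library and 2.39% in the wildtype library. Outside cardiomyocytes the gated share was thus higher in the knockout library in each class, while in cardiomyocytes the intervals overlapped. The 3000 UMIs of an erythroid cell include hemoglobin, 45.3% of knockout and 83.6% of wildtype erythroid UMIs, so the minimum was harder to reach for wildtype erythroid cells.

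Within the gated cells the class differences in the 7 genes were small in 2 of the 5 classes. Gated epicardial cells had 1153 CPM of the 7 genes in the knockout and 1145 CPM in the wildtype library, a log2 ratio of 0.01 (-0.05 to 0.07). Gated mesenchymal cells had 1155 CPM in the knockout and 1158 CPM in the wildtype library (-0.00, -0.06 to 0.06). These were the classes whose whole-class ratios were 1.08 and 0.52. The 32 other genes were lower in gated mesenchymal cells of the knockout library, at -0.21 (-0.23 to -0.18). Per UMI of the list the 7 genes thus differed by 0.21 (0.14 to 0.27) there, and by 0.07 (0.01 to 0.13) in gated epicardial cells. In gated endothelial/endocardial cells the ratio was -0.20 (-0.27 to -0.13), and in gated erythroid cells, 368 of the knockout and 36 of the wildtype library, it was -0.28 (-0.46 to -0.09). Gated cardiomyocytes were lower in the knockout library, with 839 CPM against 1071 CPM in the wildtype library, a log2 ratio of -0.35 (-0.42 to -0.28). The 32 other genes were lower there too, by -0.46 (-0.49 to -0.44), so per UMI of the list the 7 genes differed by 0.11 (0.04 to 0.18).

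Nek2 was below the wildtype level in the gated cells of 3 classes. It had 22.6 CPM in knockout and 36.7 CPM in wildtype gated cardiomyocytes (-0.70, -1.11 to -0.29), 16.8 CPM in knockout and 28.1 CPM in wildtype gated mesenchymal cells (-0.75, -1.25 to -0.27), and 17.1 CPM in knockout and 34.0 CPM in wildtype gated epicardial cells (-0.99, -1.39 to -0.58). In gated endothelial/endocardial cells its log2 ratio of -0.46 (-1.02 to 0.10), and in gated erythroid cells that of -0.78 (-1.95 to 0.70), had intervals that held 0. Per UMI of the list over whole classes, Nek2 was at -0.88 (-1.25 to -0.48) in epicardial and -0.57 (-1.06 to -0.11) in mesenchymal cells. The other 6 members in gated epicardial cells lay between -0.19 (Birc5) and 0.28 (Aurka), above the Nek2 interval. In gated cardiomyocytes, endothelial/endocardial and erythroid cells the Nek2 interval held the ratio of the summed set, so Nek2 was not set apart from it there. An antisense gene overlaps Nek2, and its share in these counts was not tested.

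**Figure D4:**
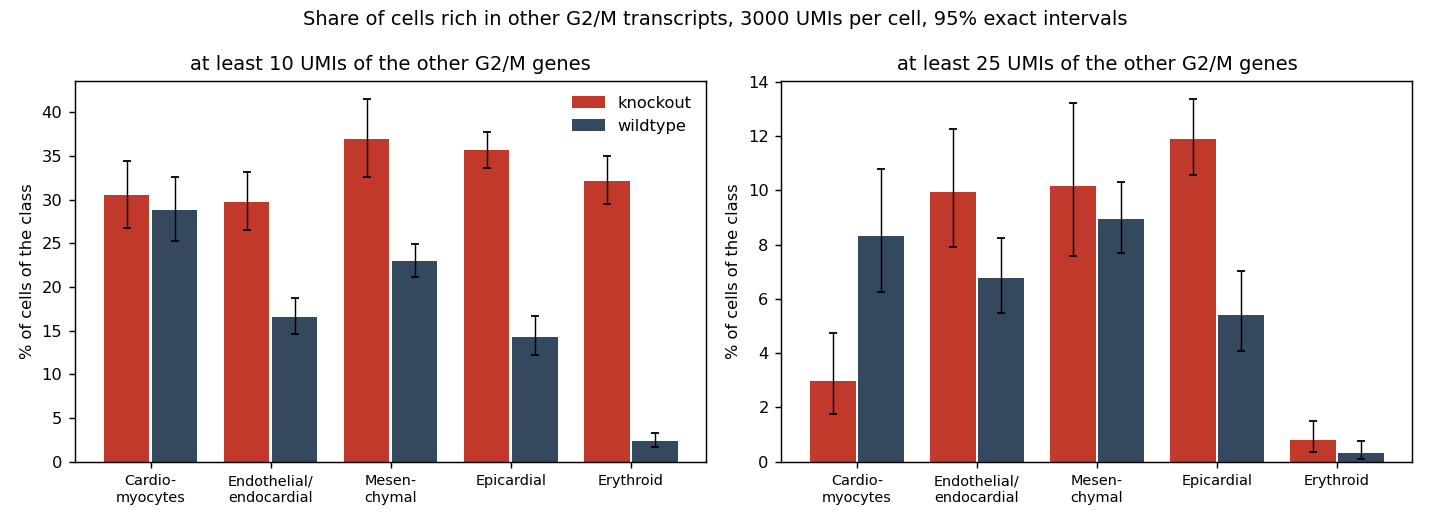
Percent of cells of a class with at least 10 (left) or at least 25 (right) UMIs of 32 other G2/M genes among 3000 UMIs, knockout left of wildtype, with 95% exact binomial intervals. Cardiomyocyte bars are alike at 10 UMIs, 30.5% in knockout and 28.9% in wildtype, and apart at 25 UMIs, 2.98% in knockout and 8.32% in wildtype.

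Cardiomyocytes differed at the upper end of the G2/M range. At least 25 list UMIs, also a cut set after the data had been seen, were found in 17 of 570 knockout cardiomyocytes (2.98%, 1.75 to 4.73) and 51 of 613 wildtype cardiomyocytes (8.32%, 6.26 to 10.8). In the other classes the order was the opposite or the intervals overlapped: 9.93% of knockout and 6.76% of wildtype endothelial/endocardial cells, 10.1% of knockout and 8.94% of wildtype mesenchymal cells, and 11.9% of knockout and 5.42% of wildtype epicardial cells. The 7 genes themselves reached at least 6 UMIs in 2.28% (1.22 to 3.87) of knockout and 4.40% (2.92 to 6.34) of wildtype cardiomyocytes. By list UMIs, the shares of knockout and wildtype cardiomyocytes thus had overlapping intervals at the G2/M gate and separate intervals at the cut of 25. By UMIs of the 7 genes themselves, the intervals of the libraries overlapped at 6 UMIs, and also at cuts of 3 and 10 UMIs.

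Cardiomyocytes were then divided by whether ventricular or atrial markers were higher. The 476 knockout ventricular cells had 437 CPM of the 7 genes and the 467 wildtype ones 544 CPM, a log2 ratio of -0.32 (-0.38 to -0.25). The 94 knockout atrial cells had 399 CPM and the 139 wildtype ones 274 CPM, a ratio in the other direction of 0.54 (0.37 to 0.72). All 7 genes were below 0 in ventricular cells, from -0.19 for Birc5 to -0.58 for Plk1, with 0 inside the interval of Aurkb (-0.56 to 0.01). All 7 were above 0 in atrial cells, where only Aurka (0.72), Birc5 (0.59) and Cdca8 (0.64) had intervals above 0. Atrial Nek2 rested on 9 knockout and 8 wildtype UMIs. Ventricular over atrial, the summed log2 ratio was 0.13 (0.00 to 0.26) in the knockout and 0.99 (0.86 to 1.12) in the wildtype library. In atrial cells the 32 other genes were also higher, at 0.36, while the S phase list was lower, at -0.45, and the number of cells there is small.

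Cdkn1a encodes p21, the cyclin-dependent kinase inhibitor induced by p53, which halts the cell cycle. It had 50.1 CPM in knockout and 17.7 CPM in wildtype cardiomyocytes, and at least 1 UMI in 34.2% of knockout and 16.8% of wildtype cells. In cells with a Cdkn1a UMI the 7 genes summed to 437 CPM in the knockout and 556 CPM in the wildtype library, a log2 ratio of -0.35 (-0.46 to -0.24). In cells without one they summed to 429 CPM in the knockout and 470 CPM in the wildtype library, a log2 ratio of -0.13 (-0.20 to -0.06). Detection of Cdkn1a depends on depth, and the cells with a UMI had a median of 20116 UMIs in the knockout and 17354 in the wildtype library, against 17055 in the knockout and 12856.5 in the wildtype library for those without. With over without Cdkn1a, the set was at 0.03 (-0.06 to 0.11) in the knockout and 0.24 (0.14 to 0.34) in the wildtype library, so the set was not lower in cells with a Cdkn1a UMI in either library.

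**Figure D5:**
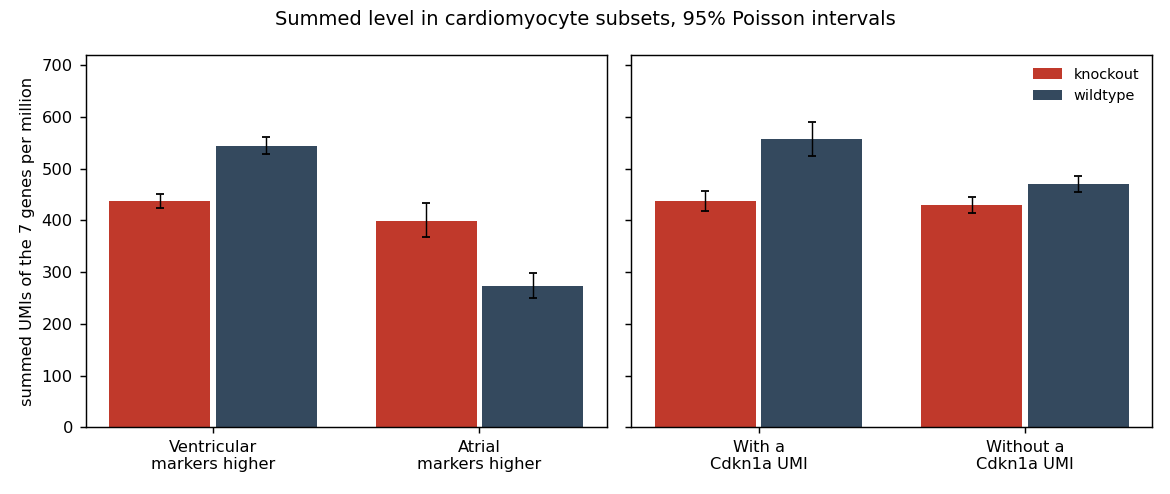
Summed level of the 7 genes in CPM in cardiomyocytes divided by ventricular or atrial markers (left) and by detection of Cdkn1a (right), knockout left of wildtype, with 95% Poisson intervals. The knockout bar is lower in ventricular cells, 437 CPM in knockout and 544 CPM in wildtype, and higher in atrial cells, 399 CPM in knockout and 274 CPM in wildtype.

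Partners of the complex were described from lists of pathway genes. Some genes, Bub1 and Hmmr among them, are in a list of partners and also in the list of other G2/M genes, so the counts of the lists are not independent. Counts of the lists in cardiomyocytes stand beside a background of 11.6% of genes past 1.5-fold higher and 9.48% lower, and those in epicardial cells beside 13.9% higher and 20.9% lower. Among 17 genes that recruit the passenger complex or are its substrates, 16 passed the minimum in cardiomyocytes, of which 0 were past 1.5-fold higher and 2 lower, with a median of -0.15. Bub1, the kinase that marks histone H2A for shugoshin, was at -0.12 (-0.31 to 0.06) and Ttk, the checkpoint kinase Mps1, at -0.01 (-0.31 to 0.30). Sgo2a, a shugoshin that docks the complex, was lowest at -0.71 (-0.90 to -0.52), and Sgo1 was highest at 0.24 with an interval that held 0. Haspin, the kinase whose mark on histone H3 is read by survivin, was at -0.54 (-1.03 to -0.05). In epicardial cells 15 of these 16 genes were past 1.5-fold higher and 0 lower, with a median of 1.06. The count higher was 4 of 16 in endothelial/endocardial cells, where 6.76% of all genes were, and 3 of 16 in mesenchymal cells, where 9.17% were. In erythroid cells it was 16 of 16 beside 82.9% of all genes, near the background, and 0 were lower in each of these classes.

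Of 17 activators and partners of Aurora A and Plk1, 0 were past 1.5-fold higher and 1 lower in cardiomyocytes, and 11 higher and 1 lower in epicardial cells. Tpx2, which activates Aurora A on the spindle, was at -0.07 (-0.21 to 0.07) in cardiomyocytes, and Bora, which lets Aurora A phosphorylate Plk1, at -0.11 (-0.36 to 0.14). Hmmr, a spindle pole protein, was the lowest at -0.75 (-0.88 to -0.62), and Nedd1, which anchors gamma-tubulin, the highest at 0.45. Of 17 genes of mitotic entry and exit, 0 were higher and 1 lower in cardiomyocytes. That gene was Cdc25b, a phosphatase that starts mitotic entry, with 59 UMIs in the knockout and 121 in the wildtype library (-1.28, -1.75 to -0.81). Cdk1 was at -0.17 and its cyclin Ccnb1 at -0.01, with Arpp19 highest at 0.39.

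The 11 transcriptional regulators of mitotic genes had 0 members past 1.5-fold in either direction in cardiomyocytes and 6 higher and 1 lower in epicardial cells. Foxm1, an activator of G2/M genes, was lowest in cardiomyocytes at -0.51 (-0.91 to -0.11), Mybl2 was at 0.33 with 0 inside its interval, and E2f4 was highest at 0.52. The 14 opposing phosphatases had 0 higher and 1 lower in cardiomyocytes, Ppp2cb at -0.67, with Ppp2r2d highest at 0.30. Of 15 relatives of the kinases, 9 passed the minimum and none was past 1.5-fold in cardiomyocytes, from Plk2 at -0.50 to Nek3 at 0.20. Of the 32 other G2/M genes, 0 were higher and 3 lower in cardiomyocytes, with Mki67 lowest at -0.86 (-0.97 to -0.74), Top2a at -0.31 and Ndc80 highest at 0.15. The 27 S phase genes had 1 higher, Cdca7 at 0.65, and 0 lower, with Rrm2 lowest at -0.39, and their summed level did not differ in cardiomyocytes beyond counting error (0.00, -0.03 to 0.04). Of 14 p53 targets, 4 were higher and 0 lower in cardiomyocytes, beside 11.6% and 9.48% of all genes, with Eda2r highest at 3.32 and Cdkn1a at 1.499.

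The genes whose levels ran closest to the summed 7 were ranked over the 5 classes of both libraries, 10 points in all, among 6568 genes with a mean of at least 20 CPM. They were Spc25 (Pearson r = 0.998), Zwilch, Top2a, Mad2l1, Ncapg, Rbl1, Plk4, Ncapd2, H2afz and Abce1 (0.992). Spc25, Zwilch and Mad2l1 encode kinetochore or checkpoint proteins, and Ncapg and Ncapd2 condensin subunits. Mki67 ranked at 3431, with r = 0.802. The points share libraries and depth, and the wildtype erythroid cells stand far from the rest. Without the erythroid class, over 8 points, Cep55 (0.992), Spc25, Bub1, Zwilch and Ska1 led.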

How the data were processed

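Single-cell RNA was measured with the 10x 3' v3.1 kit in 1 library per genotype, each of 4 pooled hearts. The deposited values are raw UMI counts for each gene in each barcode. Per the submitters' processing notes they come from Cell Ranger 7.1.0 and build mm10. The sources used here do not say whether intronic reads or strand were used.

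Barcodes with at least 3000 UMIs, at least 500 genes and at most 20% mitochondrial UMIs were kept. The gene minimum removed 15 knockout and 3642 wildtype barcodes, and 88.7% of the UMIs of the wildtype ones were hemoglobin. Cells over exactly 1 marker cut were given that class, and cells over only the epicardial and mesenchymal cuts were kept as epicardial. Cells over any other combination of cuts were left out as mixed, 284 in the knockout and 508 in the wildtype library. The cuts were set after the data had been seen. Scrublet (scanpy 1.11.5) doublet scores served as an alternative only, with 298 knockout and 451 wildtype cells marked by rank, since the automatic threshold marked 283 knockout and 2 wildtype cells. UMIs were summed per class and library. Levels have exact Poisson, ratios exact conditional binomial and shares Clopper-Pearson intervals at 95%. A gene at 0 in 1 library was set to 0.5 UMIs in the background counts. The ratio and interval code was tested on simulated data with counting error only, which does not test variation between cells or hearts.

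The text names the 7 genes, Bub1b, the extremes of each list in cardiomyocytes among genes with at least 50 UMIs, a fixed set of regulators and the 10 genes most like the summed set. The genes and lists were chosen with earlier results of these data known.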

Additional observations from a re-analysis of the deposited data

Results flagged for a closer look

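The summed 7 genes went in opposite directions in different cell classes under the same contrast, and the differences between classes were not tested, since each group is 1 library. The log2 ratio of knockout to wildtype was -0.17 in cardiomyocytes, against 0.43 in endothelial/endocardial cells, 0.52 in mesenchymal cells, 1.08 in epicardial cells and 3.82 in erythroid cells. Within cardiomyocytes it was -0.32 in cells with higher ventricular markers and 0.54 in cells with higher atrial markers, also untested.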

How the results depend on the processing

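Of 329 alternative values of single genes, 266 stayed within the counting interval of the reported ratio, 58 moved outside it and 5 reversed. Of 80 alternative values of summed ratios and of counts of members past the fold, 50 stayed the same, 28 moved, 1 reversed and 1 was weaker. Those that stayed the same include the count without a minimum of UMIs in each of the 5 classes. That count could not change, since every member passed the minimum. The reversals came with erythroid cells of at most 60% hemoglobin UMIs, a setting chosen after seeing the data, where the summed ratio was -0.26, Aurka -0.12, Aurkb -0.85, Birc5 -0.26, Cdca8 -0.29 and Nek2 -0.79, on 42 wildtype cells. The other summed ratios kept their sign, apart from those of gated epicardial and gated mesenchymal cells. With at least 15 list UMIs these were -0.02 (-0.09 to 0.04) and 0.03 (-0.04 to 0.10), against 0.01 and -0.00 at 10. They were not counted as reversed because the reported intervals held 0. In cardiomyocytes the summed ratio was -0.25 without hemoglobin and mitochondrial genes, -0.066 at no more than 10% mitochondrial UMIs, -0.24 relative to the median gene, -0.11 as a mean of single cells and -0.26 without Birc5. A minimum of 6000 UMIs gave 0.33 in endothelial/endocardial cells, 0.42 in mesenchymal cells, 0.98 in epicardial cells and 3.98 in erythroid cells, thinning 0.72, 0.70, 1.23 and 3.33 in the same order, and means of single cells 0.61, 0.69, 1.28 and 3.38. Relative to the median gene the endothelial/endocardial ratio was 0.51 and the erythroid ratio 1.59. The mesenchymal ratio was 0.62 under a stricter gate and 0.41 in cells with Postn and Sox9 UMIs, a setting also added after seeing the data, and 0 mesenchymal members passed 2-fold. The epicardial ratio was 1.202 without Birc5. The erythroid ratio was 2.06 without hemoglobin and mitochondrial genes and 4.01 with free RNA subtracted, and in gated erythroid cells with at least 15 list UMIs it was -0.55. At no more than 10% mitochondrial UMIs the ventricular ratio was -0.21 and the atrial ratio 0.73. Without the highest doublet scores the atrial ratio was 0.36, on 89 knockout and 135 wildtype cells in place of 94 and 139. The causes were not tested. No paired analysis was possible because each group is 1 library.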

Other observations

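Cell classes with fewer than 50 cells in a library were not compared, and their summed levels of the 7 genes stand as values. Macrophages had 716 CPM (658 to 777) in 37 knockout cells and 763 CPM (728 to 800) in 232 wildtype cells. Hepatic cells, 56 in the knockout library and 0 in the wildtype library, had 751 CPM (709 to 796). Megakaryocytes had 609 CPM (567 to 653) in 87 knockout cells and 122 CPM (66.7 to 205) in 22 wildtype cells. The 25 neural and neural crest cells, all of the wildtype library, had 426 CPM (350 to 513).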
